A study of Solanum lycopersicum with 12 samples.

Results

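The transcripts of 2 laser-captured root sectors, the epidermis with the cortex (EC) and the stele (S), were compared within tomato line 4 (L4), which expresses the Arabidopsis Zn transporter AtHMA4. The comparison was made of the 3 arrays titled as epidermis and cortex and the 3 titled as stele of that line, 6 of the 12 root arrays, and the EC and S arrays with the same number were taken as 1 root pool. L4 carries AtHMA4 under the constitutive CaMV 35S promoter, so that every root cell can express it, and it is a single transgenic line. The wild type (WT), whose EC and S have 3 arrays each, was grown in the same way. Its arrays add to the estimate of spread in the tests of L4. Its values are otherwise given only beside those of L4. All plants received 5 µM Zn. The sample labels give 15 days of treatment and an age of 25 days, while the methods of the study give a shorter treatment of younger plants. Each sample was captured from sections of roots pooled from several plants, and its RNA was amplified before labelling. Because these are bulk samples, fewer cells of a type and less RNA per cell cannot be told apart.

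In a tomato root the epidermis and cortex take up mineral ions from the medium, the cortex passes them inwards, and the stele holds the xylem and phloem through which metals and sugars travel. AtHMA4 is a P-type ATPase that in Arabidopsis pumps Zn out of the cells around the xylem, so that Zn can be loaded into it and carried to the shoot. Around such pumps, plants use uptake transporters of the NRAMP and ZIP families, Fe(III) reductases, metal-binding metallothioneins and the transcription factors that set their level, and both the cell wall and the ethylene pathway are known to respond to metals. The question addressed here is which of these genes, and which others on the array, differed between the outer and the inner sector of the AtHMA4-expressing root.

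The values are log2 signals of 10101 probe sets, after 108 array controls had been left out. Of these, 909 carry a single gene symbol and stand for 802 genes, while 9192 have none. Within L4, EC replicate 2 differed from the rest. Its spike-in controls averaged 13.91, against 9.81 and 11.01 on the other EC arrays and 10.04 to 11.91 on the S arrays, and its values spread less (SD 3.04, compared with 3.34 to 3.48 for the remaining L4 arrays). The 3' probe sets of the GAPDH control exceeded the 5' ones by 7.52 to 10.97 on the L4 arrays, most on EC replicate 2, but those of actin did so most on EC replicate 1 (10.45, with 8.89 on EC replicate 2), and those of ubiquitin by 1.31 to 3.44, with 1.60 on EC replicate 2. Genes of leaf photosynthesis, which neither sector should be rich in, were high on EC replicate 1: the 10 genes of that list averaged 7.64, 5.58 and 4.39 on the EC arrays of replicates 1, 2 and 3, against 4.73, 5.32 and 5.60 on the S arrays. In WT the same list averaged 8.30 and 7.99 on the EC and S arrays of replicate 1, and 3.83 to 4.48 on the others. The EC arrays of L4 did not correlate best with the S array of their own number (0 of 3, by their values over all probe sets), whereas 2 of the 3 WT arrays did. Results are therefore given with and without replicate 2 of both sectors, and how much of a result these array differences account for was not tested.

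No probe set passed the adjusted test between EC and S in L4. In a limma fit blocked on root pool, 0 of 10101 (0.0%) were called at an adjusted p under 0.05 and at least a 1.2-fold difference, and the smallest adjusted p was 0.623. Without replicate 2 it again called 0 (0.0%), with a smallest adjusted p of 0.211. At an unadjusted p under 0.05 and 1.2-fold, 118 probe sets (1.17%) were higher in EC and 293 (2.9%) were higher in S. Without replicate 2 the counts were 255 (2.52%) and 227 (2.25%), so the excess of S-higher probe sets was not seen without that pair of arrays. Of the 802 named genes, 12 were EC-higher and 22 S-higher at the unadjusted threshold with all pools. The p-values and SEs rest on a spread that limma estimated from the L4 and WT pools together, not from the L4 pools alone. They cover no variation beyond these pools. With only the 6 L4 arrays, 46 probe sets were EC-higher and 199 S-higher at the unadjusted threshold, and 0 were called. Everything below is accordingly a description of levels and differences, none of which passed the adjusted threshold in the blocked fits. Calls were made only under an alternative setting that is given near the end.

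The 3 root pools of L4 disagreed on which sector was higher. The EC minus S difference was positive in all 3 pools for 812 probe sets (8.04%) and negative in all 3 for 833 (8.25%), together 16.3% of the probe sets, and in WT the sign was shared by all 3 pools for 21.0%. Across the 10101 probe sets, the differences of pools 1 and 2 correlated with r = -0.04, those of pools 1 and 3 with r = -0.24, and those of pools 2 and 3 with r = -0.08. Probe sets of 1 array share its labelling and scan, so these coefficients are descriptions without a p. Pools 1 and 3 alone had EC above S for 1843 probe sets (18.2%) and below S for 2231 (22.1%), so that 40.3% lay on the same side of 0 in both. The SD of the differences was 1.06, 1.57 and 1.33 in pools 1, 2 and 3 of L4, compared with 0.602, 0.901 and 1.28 in WT.

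Pool 2 differed from the others in the form of its sector difference, which followed the signal level. Its median EC minus S was 0.37 among the 3938 probe sets with a mean level under 3, -1.44 among the 1352 probe sets between 6 and 8, and -0.40 among the 1283 at 10 or more. The corresponding medians were 0.02, -0.07 and -0.08 in pool 1 and -0.09, 0.29 and 0.08 in pool 3. In pool 2, 2455 probe sets were at least 2-fold lower in EC, against 1172 in pool 1 and 1227 in pool 3. The correlation with the mean level was -0.39 in pool 2, -0.03 in pool 1 and 0.07 in pool 3.

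**Figure D1:**
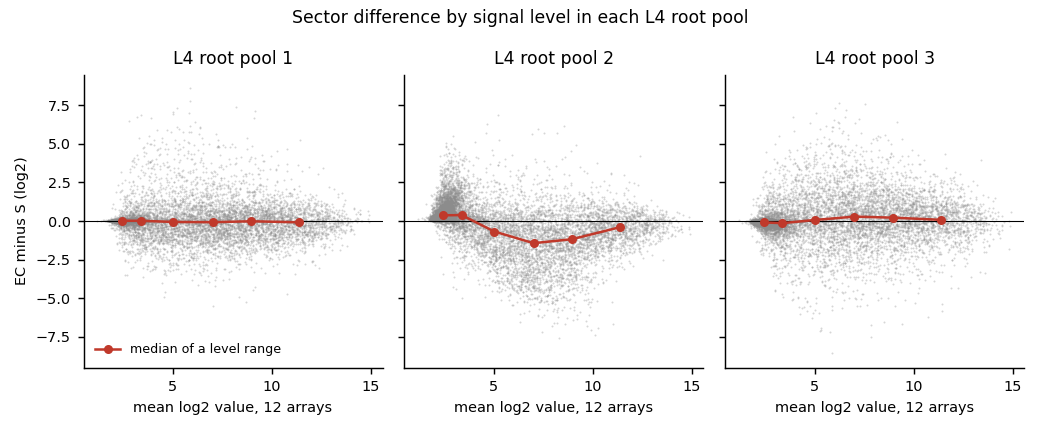
EC minus S (log2) of every probe set in L4 root pools 1, 2 and 3 against its mean log2 value over the 12 arrays, with the median of 6 level ranges in red. The medians stay near 0 in pools 1 and 3, and in pool 2 reach 0.37 at levels under 3 and -1.44 at levels of 6 to 8.

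Each EC array was next read at probe sets that the other 2 EC arrays set apart. This comparison was added after the values had been seen. On EC replicates 1 and 3 together, 95 probe sets were at least 2-fold above every S array of L4. EC replicate 2 was above every S array at 17 of these 95 (17.9%), lay within the S range at 37 and was below every S array at 41, and its median distance to the S mean was -0.33, where the mean of the other EC arrays lay 2.51 above. With EC replicate 1 set aside, 12 of 30 (40.0%) probe sets held, and with EC replicate 3 set aside, 9 of 26 (34.6%). At probe sets that the other arrays put 2-fold below every S array, EC replicate 2 was below them all at 10 of 20 (50.0%), EC replicate 1 at 31 of 84 (36.9%) and EC replicate 3 at 25 of 51 (49.0%). The probe sets that were high in EC on replicates 1 and 3 were thus mostly not high on replicate 2, and this holds for the named genes EXPA8, LIN8 and LOC543809 below.

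**Figure D2:**
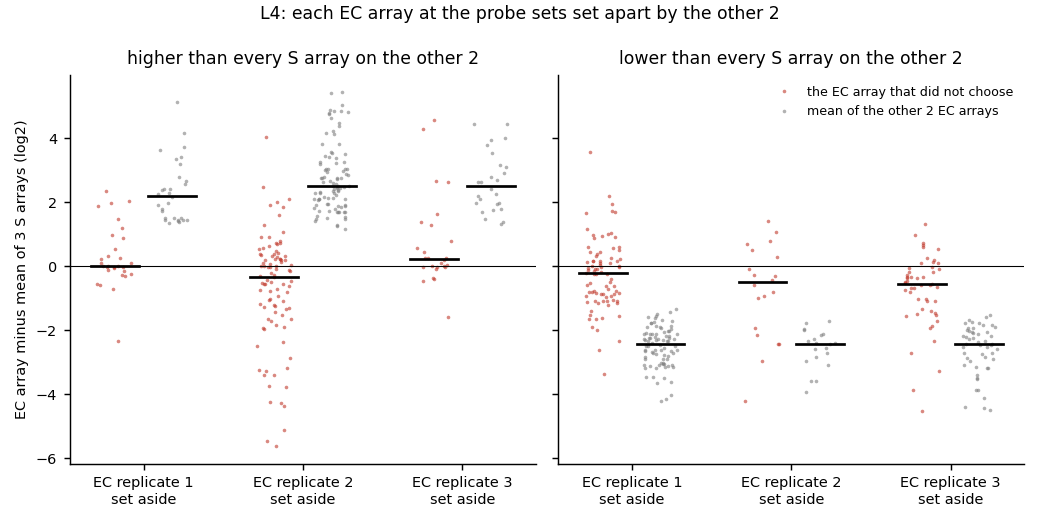
Distance of an L4 EC array from the mean of the 3 S arrays (log2), for the EC array set aside (red) and for the mean of the other 2 EC arrays (grey), at probe sets that the other 2 arrays placed at least 2-fold above (left) or below (right) every S array; bars are medians. At the 95 probe sets high on EC replicates 1 and 3, replicate 2 has a median of -0.33.

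The markers of the sectors did not separate them. Of 7 EC markers, which comprise phosphate transporters, expansins, the Fe(III) reductase FRO1 and hair-cell proteins, 5 were higher in EC on average and 4 without replicate 2, and for none did all EC arrays exceed all S arrays. EXPA8, an expansin that loosens cell walls, had log2 values of 6.94, 3.21 and 9.23 on the EC arrays and 3.36, 3.35 and 2.88 on the S arrays. EC replicates 1 and 3 were far above every S array, whereas EC replicate 2 was at the S level, and EC minus S was 3.27 ± 2.02 (SE, n = 3 pools; limma adjusted p = 0.95) or 4.96 without replicate 2. The expansin exp18 went the other way, with 9.24, 9.65 and 7.87 on the EC arrays and 9.68, 10.36 and 9.46 on the S arrays, lower in EC in 3 of 3 pools although the groups overlapped. PT1, a phosphate uptake transporter, had 4.86, 6.24 and 4.82 in EC and 4.94, 4.49 and 5.05 in S, so that EC replicate 2 alone was high. Its EC minus S was 0.48, or -0.16 without replicate 2, and in WT it was 1.73. The other phosphate transporter, PT2, had 2.21, 2.42 and 2.19 in EC and 2.11, 2.12 and 2.32 in S, near the lower end of the scale in both sectors, while in WT EC minus S was 1.55. FRO1 and the extensin ext1 were low throughout, FRO1 at 1.95 to 2.42 and ext1 at 2.38 to 2.50 on all arrays but EC replicate 2, which had 3.94. Dif54, an extensin-like hair-cell protein, was high on EC replicate 3 (6.76) and on S replicate 1 (5.38), with 2.44 and 4.20 on the other EC arrays and 3.22 and 2.52 on the other S arrays.

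Among the 4 stele markers, none had all S arrays above all EC arrays. The sucrose synthase sus3, abundant in both sectors, had 12.67, 11.51 and 11.50 in EC and 12.18, 11.91 and 12.22 in S. The sucrose transporter SUT2 had 7.37, 5.05 and 8.03 in EC and 7.04, 6.87 and 5.01 in S, and EC minus S was 0.51, or 1.68 without replicate 2. SUT4 had 2.73, 2.78 and 2.72 in EC and 2.72, 3.42 and 2.77 in S. A further sucrose synthase, LOC543961 (SUS1), averaged 2.42 in EC and 2.41 in S, near the lower end of the scale. In WT its EC minus S was -0.97, negative in each pool, whereas 3 of the 4 stele markers had a positive EC minus S there. The median EC minus S was 0.48 over the EC markers, or 0.04 without replicate 2, and -0.10 over the S markers, or -0.07 without it; over all tested probe sets it was 0.05, or -0.04 without it.

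**Figure D3:**
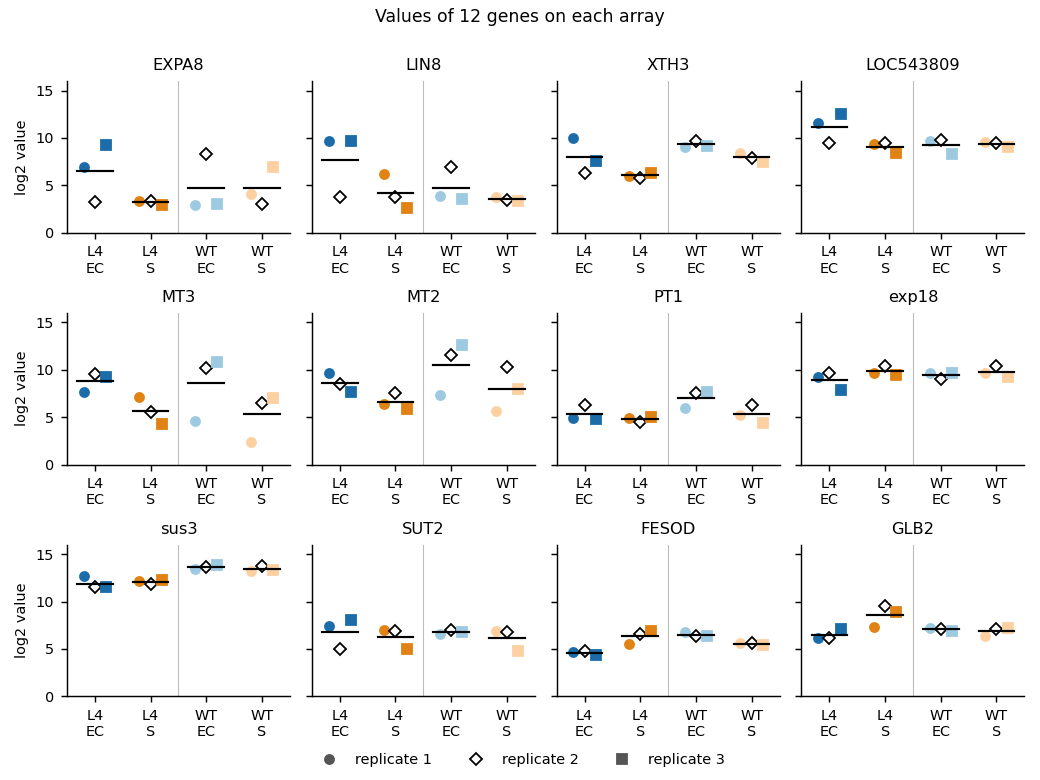
Log2 values of 12 genes on the EC and S arrays of L4 and of WT; the symbol gives the replicate, an open diamond being replicate 2, and bars are means of 3 arrays. EXPA8, LIN8 and LOC543809 are high on L4 EC replicates 1 and 3 but not 2, MT3, MT2, FESOD and GLB2 do not overlap between the sectors of L4, and sus3 and exp18 do.

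Metal-binding proteins held the largest differences of the metal genes. The metallothionein-like gene MT3, whose product is a small cysteine-rich protein able to bind metals, had log2 values of 7.67, 9.56 and 9.24 in EC and 7.18, 5.56 and 4.28 in S. All EC arrays lay above all S arrays, by the least in pool 1, and EC minus S was 3.15 ± 0.91 (SE, n = 3 pools; limma unadjusted p = 0.0158, adjusted p = 0.95) and 2.72 without replicate 2. MT2, named here after its values had been seen, had 9.66, 8.47 and 7.61 in EC and 6.37, 7.60 and 5.89 in S, again without overlap, with an EC minus S of 1.96 ± 0.80 (limma adjusted p = 0.95) and 2.50 without replicate 2. The same sector order was found in WT, where EC minus S was 3.24 for MT3 and 2.53 for MT2. The other 4 genes of the list, the metallothioneins MTA, LEMT1 and MT4 and the copper chaperone CCH, were abundant in both sectors and, at the probe set with the highest mean of each gene, had a negative EC minus S, lowest for MTA (-0.90, or -0.36 without replicate 2). MTA had 12.51, 12.04 and 10.55 in EC and 12.17, 14.00 and 11.62 in S. At these probe sets, 2 of the 6 genes were higher in EC in all 3 pools and 0 were lower in all 3, against 8.04% and 8.25% of all probe sets. MT4 depended on the probe set: the one used had 14.04, 15.12 and 13.77 in EC and 14.00, 14.54 and 14.57 in S, with an EC minus S of -0.06, whereas its 3 further probe sets were lower in EC in 3 of 3 pools, at -0.67, -1.13 and -1.47. The last of these had 12.82, 12.61 and 9.69 in EC and 13.91, 14.01 and 11.61 in S, at least 2-fold lower in EC in each pool. The median of the list was -0.25 over the 6 genes and -0.67 over all 9 probe sets.

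The metal transporters on the array did not keep a sector. NRAMP3, a transporter of divalent metals at the vacuole in Arabidopsis, had 8.57, 3.29 and 7.03 in EC and 7.48, 8.32 and 5.64 in S. EC replicate 2 was the lowest array, and EC minus S was -0.85 ± 1.39 with all pools but 1.24 without replicate 2. Nramp2 had 6.93, 5.94 and 6.50 in EC and 5.97, 6.22 and 5.79 in S, and its EC minus S of 0.47 ± 0.28 was 0.84 without replicate 2 (limma unadjusted p = 0.0059), where both remaining EC arrays lay above both S arrays. NRAMP1 was near the lower end of the scale, with 2.37, 2.54 and 2.39 in EC and 2.36, 3.66 and 2.46 in S. By the study's text, the probe sets of Nramp2, FER and bZIP44 also match other sequences of the genome, so that their values may not be those of the genes alone. FER, the bHLH factor that controls Fe-deficiency responses of the tomato root, had 6.75, 7.95 and 9.23 in EC and 7.84, 7.19 and 8.20 in S, and overlapped fully, with an EC minus S of 0.23 in L4 and 1.60 in WT. The probe set of the transcription factor bZIP44, identified from the text of the study, had 11.84, 5.20 and 11.67 in EC and 11.30, 11.87 and 10.11 in S. As for NRAMP3, EC replicate 2 alone was low, and EC minus S turned from -1.52 to 1.05 without replicate 2.

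The 10 named genes ranked first by p on the EC side comprised MT3 and wall, defence, sugar, redox and photosynthesis genes. Ve2, a receptor-like protein of the Verticillium resistance locus, had 6.15, 6.57 and 5.54 in EC and 3.92, 4.01 and 4.57 in S, without overlap, and EC minus S was 1.92 ± 0.38 (SE, n = 3 pools; limma unadjusted p = 0.00332). The chitinase CHI17 had 4.94, 3.71 and 5.97 in EC and 2.94, 2.69 and 3.85 in S, at least 2-fold higher in EC in each pool, although EC replicate 2 was below S replicate 3. LOC543809, inositol-1-phosphate synthase by its synonym, had 11.57, 9.42 and 12.57 in EC and 9.31, 9.47 and 8.38 in S. EC replicate 2 was again at the S level, and EC minus S was 2.13 with all pools and 3.23 without replicate 2. XTH3, a xyloglucan endotransglucosylase/hydrolase that cuts and rejoins wall xyloglucan, had 10.03, 6.26 and 7.56 in EC and 5.99, 5.79 and 6.33 in S, higher in EC in 3 of 3 pools. GPXle-1, a glutathione peroxidase, and TAO2, an aldehyde oxidase, had small but even differences: EC minus S was 0.59 for GPXle-1 and 0.58 for TAO2, and both were higher in EC in 3 of 3 pools. The cell wall invertase LIN7 had 3.07, 3.38 and 4.85 in EC and 2.60, 2.63 and 2.63 in S. The chlorophyll a/b-binding genes CAB4 and CAB6A, with an EC minus S of 2.77 and 1.94, belong to the leaf photosynthesis list that was high on EC replicate 1; CAB4 had 9.21, 7.41 and 4.55 in EC and 4.90, 3.37 and 4.59 in S. The adjusted p was 0.95 for each of these 10 genes in limma.

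The 10 named genes ranked first by p on the S side were lower in EC in all 3 pools. LOC544252, a gene with no function given in the tables used here, had 6.62, 5.80 and 6.34 in EC and 7.94, 7.09 and 7.36 in S, and EC minus S was -1.21 ± 0.17 (SE, n = 3 pools; limma unadjusted p = 0.000577), the smallest p of any named gene. FESOD, an iron superoxide dismutase that removes superoxide, had 4.72, 4.77 and 4.39 in EC and 5.48, 6.62 and 6.94 in S; all EC arrays were below all S arrays, EC minus S was -1.72 ± 0.35, and a further FESOD probe set gave -2.79, also negative in 3 of 3 pools. GLB2, a non-symbiotic haemoglobin, had 6.18, 6.16 and 7.14 in EC and 7.35, 9.48 and 8.94 in S, again without overlap. The S-like ribonuclease gene rnalx had 3.04, 6.23 and 7.38 in EC and 7.23, 8.49 and 10.05 in S, and its EC minus S of -3.04 was the lowest of the named genes. CITRX, a thioredoxin that interacts with the Cf-9 resistance protein, had 7.20, 3.38 and 6.47 in EC and 8.58, 6.93 and 7.62 in S. The small modifier gene sumo had 6.69, 5.91 and 5.17 in EC and 7.91, 7.80 and 5.89 in S, lower in EC within each pool while pool 3 was low in both sectors. LOC544187, LOC543632 and LOC543949, which have no function in the tables, had an EC minus S of -1.49, -0.88 and -0.91, all with EC below S on every array. DDTFR10 had an EC minus S of -0.72. As each of the 10 was negative in all 3 pools, its sign without replicate 2 was fixed and adds nothing. Ranking by the p of a fit blocked on pool also favours genes with the same sign in each pool. The adjusted p was 0.95 for each in limma.

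**Figure D4:**
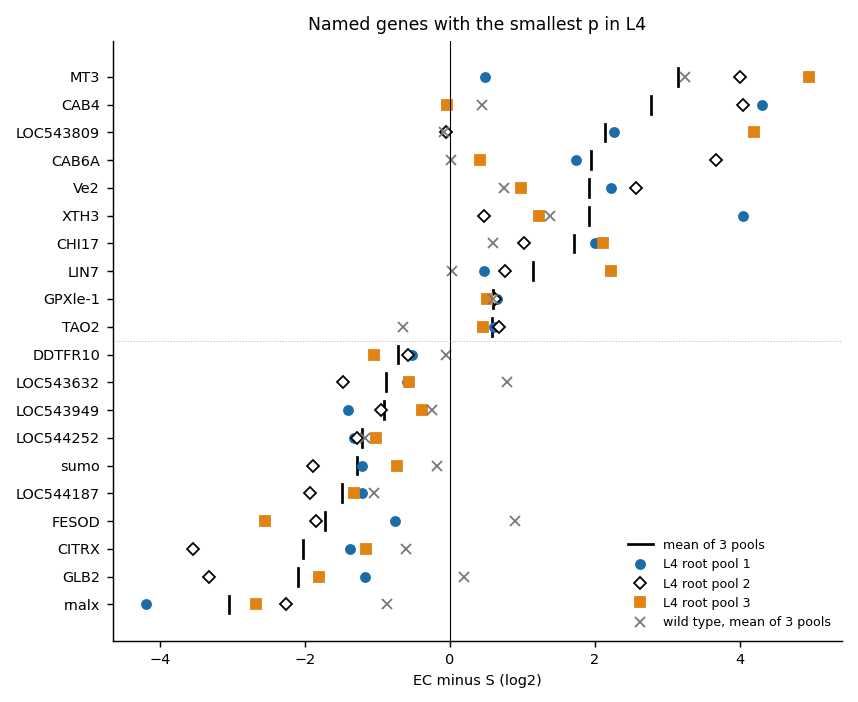
EC minus S (log2) in each of the 3 L4 root pools for the 10 named genes per direction that rank first by p in L4, with the mean of the pools as a bar and the mean of the WT pools as a cross. The S-higher genes lie below 0 in every L4 pool; FESOD, LOC543632 and GLB2 have a positive mean in WT, and for LOC543809 and CAB4 an L4 pool lies at or just below 0.

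With all pools, genes of the cell wall had shares above 0 near that of the whole array, where 5765 of 10101 probe sets had a positive EC minus S in L4. Without replicate 2, 4089 of 10101 probe sets were above 0. So were 20 of the 27 expansins, extensins and xyloglucan enzymes and 14 of the 29 pectin and glucan hydrolases. Of 27 expansins, extensins and xyloglucan enzymes, 17 had a positive and 10 a negative EC minus S with all pools. In 3 of 3 pools, 7 were higher in EC and 1 was lower, against 8.04% and 8.25% of all probe sets. The median was 0.41 (0.47 without replicate 2, against 0.08 in WT). Limma called 0, and 1 gene (XTH3) passed the unadjusted threshold. The expansin EXP2 had 12.68, 11.12 and 10.05 in EC and 9.90, 10.14 and 8.31 in S, and exp11 had 12.45, 8.05 and 11.37 in EC and 7.04, 7.92 and 9.29 in S. EC replicate 1 was the highest array for both genes, as it was for XTH3. The lowest member, exp9, had 10.38, 8.40 and 5.78 in EC and 8.22, 11.43 and 9.49 in S. Pectin and glucan hydrolases, which trim wall polymers, had 16 of 29 members above 0 and 12 below it, and a median of 0.13 (-0.04 without replicate 2). They ran between CELLULASE (1.82 ± 1.88, or 3.08 without replicate 2) and the beta-galactosidase TBG2 (-1.90 ± 1.14, or -0.88 without it). Tyramine hydroxycinnamoyl transferases make wall-bound amides: THT7-8 had 6.69, 4.23 and 5.36 in EC and 6.40, 9.52 and 7.84 in S, while THT7-1 had 3.54, 4.23 and 2.86 in EC and 4.50, 5.19 and 3.99 in S and was lower in EC in 3 of 3 pools. The peroxidase CEVI-1 had the highest EC minus S of the phenylpropanoid and peroxidase list (1.57), with 9.03, 4.78 and 3.96 in EC and 4.28, 5.45 and 3.32 in S.

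Sucrose-cleaving enzymes held the named gene with the highest EC minus S. The invertase LIN8 had 9.64, 3.76 and 9.65 in EC and 6.18, 3.77 and 2.65 in S. EC replicates 1 and 3 agreed and stood above every S array, in replicate 2 the sectors were nearly equal, and EC minus S was 3.48 ± 1.41 (SE, n = 3 pools; limma adjusted p = 0.95) or 5.22 ± 1.31 without replicate 2 (limma unadjusted p = 0.0162). The opposite member, CIF1, an inhibitor of cell wall invertase, had 9.97, 10.20 and 9.64 in EC and 10.27, 12.10 and 13.18 in S, with all EC arrays below all S arrays and an EC minus S of -1.91 ± 0.60 (limma adjusted p = 0.95). Over the 14 genes of sucrose cleavage and sugar transport, 4 were higher in EC in 3 of 3 pools (LIN7, Wiv-1, ST3 and HT3) and 2 were lower in 3 of 3. Of all probe sets, 8.04% were higher and 8.25% lower in 3 of 3 pools. The median of the sugar list was 0.41. LIN8 and CIF1 were picked as the highest and the lowest member of this list, so their opposite sides in L4 follow from that choice. In WT, EC minus S was 1.22 for LIN8 and -0.77 for CIF1. Starch and sugar phosphate enzymes had a median of 0.14, between sucrose phosphate synthase SPS (0.78) and the ADP-glucose pyrophosphorylase subunit AGP-S2 (-1.37, or 0.02 without replicate 2).

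In the ethylene pathway, the sign of EC minus S depended on replicate 2 for many genes, as it did over the whole array. Of 16 genes of ethylene perception and signalling, 5 had a positive EC minus S with all pools and 13 without replicate 2. Over all probe sets, 5765 and 4089 of 10101 did. The sign changed for 8 of the 16 genes and for 4063 of all 10101 probe sets. The median of the list was -0.33 with and 0.14 without replicate 2. Its pool 2 median was -1.16 at a median level of 7.14, against -1.44 over all probe sets at levels of 6 to 8. NR, an ethylene receptor listed as LOC544279, had 9.21, 4.49 and 9.54 in EC and 8.77, 8.57 and 8.71 in S. EC replicate 2 was far below every other L4 array and the other EC arrays were above every S array, so EC minus S was -0.93 with and 0.64 without it. The receptor ETR4 followed it, with 8.24, 3.57 and 9.21 in EC and 8.27, 8.13 and 8.06 in S. The extremes of the list were ETR5 (0.39) and ETR2 (-1.60). In ethylene synthesis, the ACC oxidase ACO4, which carries out the last step, had 11.03, 10.53 and 8.59 in EC and 11.40, 11.34 and 11.34 in S, below every S array on every EC array, with an EC minus S of -1.31 ± 0.50 and -1.56 without replicate 2 (limma adjusted p = 0.95 with all pools). ACO5 had 1.95, 5.56 and 3.06 in EC and 2.96, 2.01 and 2.71 in S, and ACO6 had 10.12, 7.79 and 7.08 in EC and 8.89, 10.44 and 10.99 in S. ACS1A, an ACC synthase, had 4.97, 4.91 and 5.16 in EC and 4.02, 4.56 and 2.65 in S, without overlap and with an EC minus S of 1.27 ± 0.76. The 2 further ACO6 probe sets, both at a low level, had a positive EC minus S. E8, a ripening gene, was low on all 6 arrays (2.54 to 2.75). The list of ethylene response factors, which also holds the cold-type factor CBF1, had a median of -0.21. It ran between CBF1 (1.94), high on EC replicate 1 alone of the L4 arrays at 7.63, and LOC606712 (-1.57).

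The median over the genes of abscisic acid synthesis was -0.74 with all pools and 0.53 without replicate 2. Of the 7 genes, 2 had a positive EC minus S with all pools and 5 without replicate 2. Over all probe sets, 5765 and 4089 of 10101 did. The sign changed for 3 of the 7 genes and for 4063 of all 10101 probe sets. The list had a median level of 7.08, and pool 2 had a median of -1.44 over all probe sets at levels of 6 to 8. FLACCA, the molybdenum cofactor sulphurase that aldehyde oxidase needs, had 7.82 and 7.98 on EC replicates 1 and 3 but 3.0 on EC replicate 2, and 7.29, 7.98 and 7.97 on the S arrays. NSY, the lowest member, had 6.50, 2.31 and 5.97 in EC and 7.33, 6.67 and 6.88 in S and was below every S array on every EC array, whereas the highest, NCED1, was raised on EC replicate 1 alone (6.23). Genes of jasmonate and oxylipin synthesis had 10 of 13 members above 0 with a median of 0.29, between opr2 (1.49) and ALPHA-DOX2 (-1.71). Auxin genes had 3 of 11 above 0, with a median of -0.47 (0.00 without replicate 2), between IAA7 (0.80) and LOC543517 (-1.73), given as LeARF1 without a described function. LOC543517 had 5.11, 6.21 and 4.91 in EC and 6.14, 8.37 and 6.91 in S, at least 2-fold lower in EC in each pool.

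Cell cycle genes lay on the S side with and without replicate 2, and without it had the lowest median of the lists. Of 15 genes, 13 had a negative EC minus S in L4 and 14 in WT, and the median was -0.73, -0.68 without replicate 2 and -1.21 in WT. Over all probe sets, 4326 of 10101 had a negative EC minus S in L4 and 5981 without replicate 2, where 11 of the 15 genes did. The members are cyclins, cyclin-dependent kinases and replication proteins that are made in dividing cells. CycA1, an A-type cyclin, had 6.36, 3.09 and 8.20 in EC and 10.02, 8.02 and 8.48 in S, with an EC minus S of -2.96 ± 1.70 (SE, n = 3 pools; limma adjusted p = 0.95). CDKB2, a kinase of dividing plant cells, had 6.85, 3.78 and 7.93 in EC and 10.39, 7.93 and 6.77 in S, and PCNA, the DNA polymerase clamp, had 7.52, 5.85 and 8.13 in EC and 10.09, 8.29 and 7.68 in S. Pools 1 and 2 carried these differences, with list medians of -1.37 and -1.40, while that of pool 3 was 0.13. The kinase inhibitor krp2 was the member with no overlap, at 7.40, 6.50 and 6.51 in EC and 8.77, 7.91 and 7.42 in S. Among the L4 arrays, the mean of the list was highest on S replicate 1 (8.23) and lowest on EC replicate 2 (5.59), with 6.96 and 7.13 on the other EC arrays and 7.18 and 6.86 on the other S arrays. In WT the list averaged 7.32, 6.92 and 5.21 on the EC arrays and 7.19, 7.26 and 7.96 on the S arrays. The gap in WT was thus mainly in replicate 3, and in replicate 1 EC was slightly above S. Limma called 0 of the 15, and 1 (krp2) passed the unadjusted threshold.

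Ribosomal proteins and translation factors also lay on the S side on average, by less. Of 13, 12 had a negative EC minus S, or 10 without replicate 2, where 4326 and 5981 of all 10101 probe sets did. The median was -0.38 (-0.18 without replicate 2, against 0.15 in WT), and the pool medians were -0.72, -0.85 and 0.13. At a mean level of at least 4, the median was -0.41 over the list and -0.27 over all probe sets. The translation factor eIF-5A4 had 10.72, 11.36 and 10.14 in EC and 11.43, 12.41 and 11.99 in S, without overlap, and its EC minus S of -1.20 was the lowest of the list. The leaf photosynthesis list had a median of 0.52 and 0.79 without replicate 2. Its pool medians were 3.23, -0.53 and -0.38, and 9 of its 10 genes were at least 2-fold higher in EC in pool 1 against 3 in pool 2 and 0 in pool 3. Pollen and fruit genes, at a median level of 2.67, had a median of 0.27 with 9 of 10 above 0, or -0.01 with 5 of 10 above 0 without replicate 2. Of all 10101 probe sets, 5765 and 4089 were above 0. The fruit gene 2A11 had 2.27, 2.65 and 2.31 in EC and 2.38, 6.95 and 4.51 in S.

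The remaining lists were balanced or small. Over all probe sets, 5765 of 10101 had an EC minus S above 0 with all pools and 4089 without replicate 2. Antioxidant enzymes had 7 of 19 members above 0 and a median of -0.12, between the glutathione transferase GST-T4 (1.03, all EC arrays above all S arrays) and FESOD. Defence and wound proteins had 13 of 20 above 0 and a median of 0.21, between PR1b1 (2.38 ± 1.53) and TSI-1 (-1.87 ± 1.35, or -2.94 without replicate 2), and without replicate 2 10 of 20 were above 0. The 51 other transcription factors had a median of -0.10, and GBF4, a G-box factor with 7.26, 4.14 and 8.53 in EC and 9.65, 8.02 and 8.66 in S, was the lowest at -2.13 (-1.26 without replicate 2), while the KNOX gene TKN3 was the highest at 1.00 (0.55 without it). Kinases had a median of -0.27, or 0.13 without replicate 2, between MPK3 (0.89) and PPCK2 (-1.70), and plastid isoprenoid genes one of -0.32, between PTOX (0.39) and NSY (-2.04). Heat shock proteins had a median of 0.10, or -0.43 without replicate 2, between ER21 (1.15, or -0.23 without it) and HSP21 (-1.51, or -2.25 without it), which was high on S replicate 3 alone at 7.11. The proton pump LHA2 had 12.79, 11.87 and 12.59 in EC and 11.62, 12.68 and 11.86 in S, and the Ca pump LCA1 had 5.69, 2.51 and 5.51 in EC and 5.82, 6.93 and 7.09 in S, EC replicate 2 being the lowest array of LCA1. The aquaporin Aqp2 had an EC minus S of -1.15 (0.14 without replicate 2) and TIP of 0.14 (-0.53 without it). Ammonium transporter AMT1-2 lay at -0.01 (0.66 without replicate 2), the amino acid carriers ProT2 at 0.82 (-0.84 without replicate 2) and AAP1 at -1.70 (-0.34 without it), the alcohol dehydrogenase ADH2 at 0.55, and the hormone genes CYP85A1 and SPY, of brassinosteroid synthesis and gibberellin signalling, at 1.32 (2.37 without replicate 2) and -0.55. Limma called 0 of the 384 genes in the lists.

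**Figure D5:**
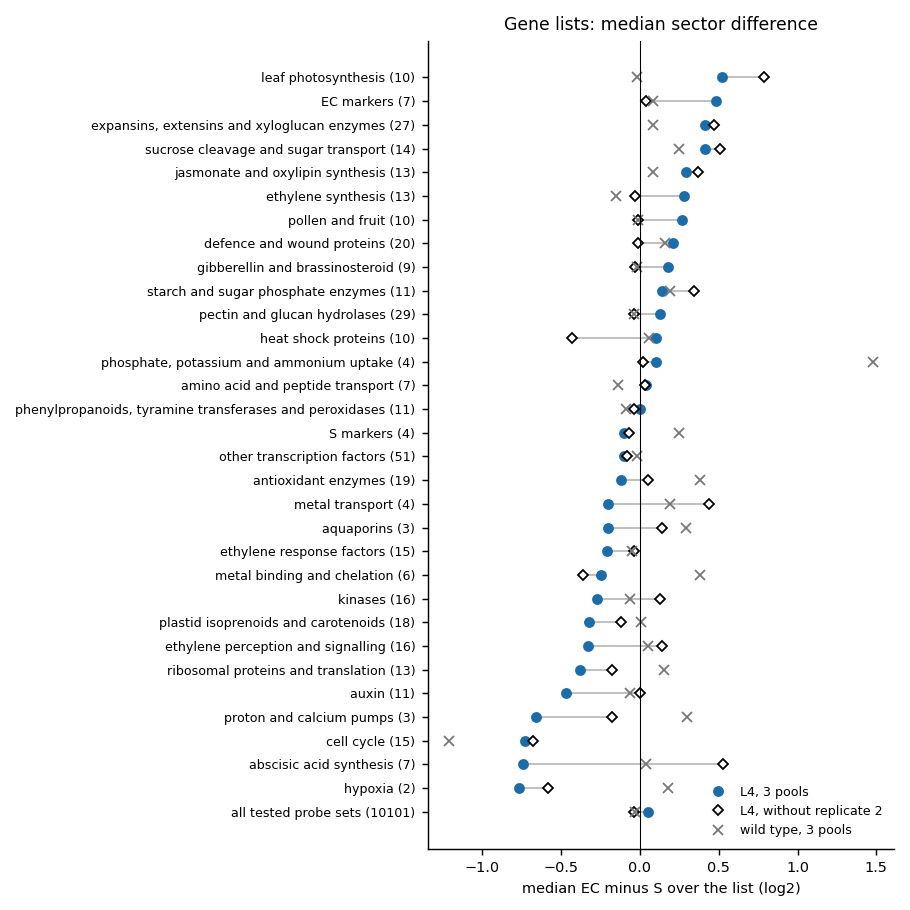
Median EC minus S (log2) over each gene list in L4 with all 3 pools (blue), in L4 without replicate 2 (open diamonds) and in WT (crosses), with the number of genes in brackets and all tested probe sets in the bottom row. The cell cycle list stays at -0.73 and -0.68, whereas abscisic acid synthesis moves from -0.74 to 0.53 without replicate 2.

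The sector difference of L4 was then tested against that of WT, which asks whether the AtHMA4 line orders its sectors as WT does. Limma called 0 of 10101 probe sets (0.0%), with and without L4 replicate 2, and in WT alone it called 0 (0.0%), where 164 probe sets (1.62%) were higher in EC and 112 (1.11%) higher in S at an unadjusted p under 0.05. For the difference between L4 and WT, 54 probe sets (0.535%) were positive and 188 (1.86%) negative at an unadjusted p, and without L4 replicate 2 they were 144 (1.43%) and 157 (1.55%). FESOD had the lowest p of the named genes: EC minus S was -1.72 in L4 and 0.90 in WT, where it had 6.75, 6.35 and 6.32 in EC and 5.64, 5.62 and 5.45 in S, and the difference was -2.62 ± 0.50 (SE; limma unadjusted p = 0.0027, adjusted p = 0.98). The sectors of L4 and of WT were in opposite order on all arrays. GLB2 had a difference of -2.29, against WT values of 7.18, 7.13 and 6.95 in EC and 6.41, 7.10 and 7.16 in S. LOC543632 (-1.67), the peptide deformylase PDF1B (-1.50) and the auxin-binding protein gene ERABP1 (-0.95) were lower in EC in 3 of 3 L4 pools and higher in 3 of 3 WT pools. TAO2 went the other way, with 9.68, 10.22 and 10.04 in EC and 9.08, 9.54 and 9.58 in S of L4 and 8.65, 8.45 and 9.49 in EC and 9.45, 9.45 and 9.66 in S of WT, a difference of 1.23 ± 0.29. CAB6A (1.93), LIN7 (1.13), the protochlorophyllide reductase POR2 (1.02) and DXR of plastid isoprenoid synthesis (0.73) were the other named genes ranked first by p on the positive side. Across all probe sets, 54 (0.535%) were higher in EC in all 3 L4 pools and lower in all 3 WT pools, and 80 (0.792%) the reverse.

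Probe sets without a gene name held the smallest p-values, but they are 9192 of the 10101 tested, and only 909 have a name. Les.1128.2.S1_at had 6.07, 5.82 and 4.71 in EC and 8.79, 7.78 and 7.34 in S, below every S array on every EC array, with an EC minus S of -2.44 ± 0.22 (SE, n = 3 pools; limma unadjusted p = 6.17e-05, adjusted p = 0.623), whereas in WT it was 0.01. Les.4985.1.S1_at had 6.74, 5.44 and 5.99 in EC and 8.77, 7.14 and 7.60 in S. On the EC side, LesAffx.9043.1.S1_at had 3.80, 3.33 and 3.98 in EC and 2.54, 2.62 and 2.66 in S, and Les.5233.1.S1_at had 10.50, 8.47 and 11.10 in EC and 7.57, 6.30 and 5.80 in S, both without overlap. All 3 EC arrays were above all 3 S arrays for 199 probe sets (1.97%) and below them for 286 (2.83%). At least 2-fold in the same direction in each of the 3 pools were 17 probe sets higher in EC (0.168%), of which 3 have a name (AGAL, CHI17 and ST3), and 58 higher in S (0.574%), of which 9 have a name, namely CITRX, GLB2, rnalx, abz1, LOC544252, LOC544187, LOC543517, LOC543883 and the metallothionein MT4 at the further probe set given above.

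When the array of L4 EC replicate 2 alone was left out and the root pools were not used as a block, limma called 5 probe sets, all higher in EC. None has a gene name, like 9192 of all 10101 probe sets. These 5 are given by their identifiers after their values had been seen. Les.1983.1.A1_at had 6.61 and 7.82 on EC replicates 1 and 3, 2.40 on EC replicate 2, 2.30 to 2.39 on the S arrays and 2.37 to 2.44 on the 6 arrays of WT. Les.2866.1.A1_at had 5.06 and 4.72 on EC replicates 1 and 3, 1.98 on EC replicate 2 and 1.86 to 1.87 on the S arrays. Les.1983.1.A1_at was therefore high on 2 of the 12 arrays, and both probe sets were near the S level on EC replicate 2. The other probe sets were Les.5233.1.S1_at, LesAffx.9043.1.S1_at and LesAffx.58193.1.A1_at, the last with 3.38, 2.99 and 3.52 in EC and 2.70, 2.70 and 2.71 in S. The SD of the S arrays was 0.043, 0.01 and 0.007 at Les.1983.1.A1_at, Les.2866.1.A1_at and LesAffx.58193.1.A1_at, all low in S. It was 0.059 at LesAffx.9043.1.S1_at and 0.913 at Les.5233.1.S1_at. How far such small spreads account for the calls was not tested.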

How the data were processed

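Amplified RNA of EC and S from L4 and WT was hybridised to 12 Tomato Genome arrays, 3 for each group. The deposited values are log2 signals recorded with the GeneChip Command Console software; their summarisation and normalization are not given in the sources used here. No column was left out. The number of arrays limits the precision.

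EC minus S was fitted with limma 3.58.1 in R 4.3.3 (lmFit, eBayes) on all 12 arrays, blocked on root pool, which leaves 4 residual degrees of freedom, over 10101 probe sets without a filter and with Benjamini-Hochberg adjustment. Calls required an adjusted p under 0.05 and a 1.2-fold difference, the thresholds of the study. EC and S of a number were taken as 1 pool because the methods describe independent experiments, each giving both sectors. The values did not bear this out in L4, where deviations from the group mean correlated with r = 0.03, -0.16 and -0.27 within the numbers 1, 2 and 3, against 0.63, 0.17 and 0.06 in WT.

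Symbols came from the platform annotation; 885 of 909 gene identifiers are in the RefSeq table of assembly SLM_r2.1, which gave synonyms only. The probe set with the highest mean stands for a gene; of 12 further probe sets of named genes, 4 had the opposite sign. Named genes were the 10 of each direction with the smallest p, the 5 of each direction for L4 against WT, all sector markers, the genes the study names for roots, and the extremes of each of 32 lists. Members and lists were chosen with earlier results of these data known. The fit was checked on simulated data. Alternatives were other blocks, weights, covariates, scalings, filters, thresholds and arrays left out. Figures were drawn with matplotlib 3.10.9.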

Additional observations from a re-analysis of the deposited data

Results flagged for a closer look

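For 6 named genes the sectors were in one order in all 3 L4 pools and in the opposite order in all 3 WT pools, among 403 genes and probe sets looked at; limma's test of the difference called none of them (adjusted p = 0.98 for each). EC minus S in L4 less that in WT was -2.62 for FESOD (-1.72 in L4, 0.90 in WT), -1.67 for LOC543632 (-0.88 in L4, 0.79 in WT) and -1.50 for PDF1B (-0.66 in L4, 0.84 in WT). It was -0.95 for ERABP1 (-0.47 in L4, 0.48 in WT) and 1.23 for TAO2 (0.58 in L4, -0.65 in WT). For 2A11 it was -2.25 (-2.20 in L4, 0.05 in WT), where the smallest pool difference was 0.11 in L4 and 0.03 in WT. Across all probe sets, 0.535% and 0.792% had such opposite orders, positive and negative in L4, and 6 of 403 was near these shares together. All but 2A11 were also named above for their small p in the test of L4 against WT, which used the same values.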

How the results depend on the processing

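Limma called 0 probe sets for EC against S in L4, for EC against S in WT and for the difference between them under every alternative but one: with only L4 EC replicate 2 left out and no replicate block, it called 5 in L4 and 3 for the difference between L4 and WT. At an unadjusted p, the EC-higher probe sets of L4 (118) numbered 46 with only the 6 L4 arrays and a replicate block, 208 with array weights, 234 with a spike-in covariate, 189 with quantile normalization, 34 at a mean level of at least 4, 78 without moderation, 63 at 2-fold and 255 with only L4 EC replicate 2 left out and no replicate block; with a replicate left out they numbered 71 to 255. The S-higher probe sets (293) numbered 176 at a mean level of at least 4, 161 with trend and robust, 176 without moderation, and 162 with only L4 EC replicate 2 left out; with a replicate left out they numbered 224 to 590. For L4 against WT (242) the counts were 536 with array weights, 109 at a mean level of at least 4, 138 with trend and robust, and 182 to 573 with a replicate left out. The causes were not tested. At an adjusted p under 0.10 and all arrays, L4 and the difference still had 0 calls, while WT had 4 with array weights and 1 with a spike-in covariate. Without the replicate block and with all arrays, L4 had 116 EC-higher and 231 S-higher probe sets, and no call changed.

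Of the 102 named genes and probe sets, EC minus S in L4 changed sign for 20 with array weights, 7 with the spike-in covariate, 3 with quantile normalization and 2 with median centring, and for 5, 18 and 12 without L4 replicate 1, 2 and 3. Among these were NRAMP3, FER, LOC544279, ACO5, ER21, ProT2 and bZIP44. FRO1 and E8 lay near the lower end of the scale on all arrays, where a further decrease could not be measured.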
